A study of Mus musculus with 6 samples.

Results

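Lysophosphatidic acid (LPA) and sphingosine 1-phosphate (S1P) signaling genes were examined in the uterus on day 4 of mouse pregnancy. The 10 genes were taken by name from the 56748 genes of each deposited table: the LPA receptors *Lpar1*, *Lpar2*, *Lpar3*, *Lpar4* and *Lpar6*, the LPA-making enzyme *Enpp2* (autotaxin), the sphingosine kinases *Sphk1* and *Sphk2*, and the S1P receptors *S1pr2* and *S1pr3*. All 10 were kept, with 16605 genes in total, by the filter on weakly expressed genes. RNA of 3 control uteri was compared with RNA of 3 *Gp130* ecKO uteri, all collected at 1600 h on day 4 from sexually mature females of the C57BL/6 background mated with fertile wildtype males. *Gp130* ecKO females carried *Ltf* iCre/+ and *Gp130* flox/flox, so that *Gp130*, the receptor subunit shared by LIF and related cytokines, was to be deleted in the uterine epithelium. The labels give control females as WT, while the study describes its controls as *Ltf* +/+ *Gp130* flox/flox or wildtype. Which of these each control female was is not given in the sources used here. *Ltf* is a hormone-responsive gene of the mature uterine epithelium and is also active in myeloid cells. The labels give the tissue as uterus, and the design text names the endometrium.

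LPA and S1P are lipid signals that act outside cells through G protein-coupled receptors. Autotaxin makes LPA from lysophosphatidylcholine, and the sphingosine kinases make S1P from sphingosine. In the mouse uterus *Lpar3* is needed for timely implantation and even spacing of embryos and lies upstream of prostaglandin synthesis, and S1P is best known for keeping blood vessels intact, also in the decidua.

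Promoters are shown for *Lpar3*, the member with the highest level in both groups, and for *S1pr2*, the member with the smallest p-value. Each sequence is the 250 bases before the start of the canonical transcript, read 5′ to 3′ on the gene's strand (GRCm39, GENCODE M39), and neither window overlaps an annotated exon. The *Lpar3* window is chr3:145926441-145926690 on the plus strand, and the *S1pr2* window is chr9:20888078-20888327 on the minus strand. The *S1pr2* window lies within the annotated span of the gene (chr9:20873657-20914139), outside its exons. The third sequence is the 29 bases around the only match of a STAT motif among the promoters of the 10 genes, in *Sphk1* (chr11:116422612-116422640, plus strand), with the matching letters in capitals.
Lpar3: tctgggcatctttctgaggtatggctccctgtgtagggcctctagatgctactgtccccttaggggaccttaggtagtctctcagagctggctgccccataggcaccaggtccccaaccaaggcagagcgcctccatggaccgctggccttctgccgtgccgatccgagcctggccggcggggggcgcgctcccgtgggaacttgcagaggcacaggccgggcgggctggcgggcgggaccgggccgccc
S1pr2: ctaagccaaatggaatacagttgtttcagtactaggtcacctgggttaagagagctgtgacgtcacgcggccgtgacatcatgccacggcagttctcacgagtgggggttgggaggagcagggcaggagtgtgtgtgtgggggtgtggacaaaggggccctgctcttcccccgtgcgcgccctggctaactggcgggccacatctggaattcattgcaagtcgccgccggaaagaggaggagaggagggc
Sphk1: ctgagtcaccTTCTCGGAAggcactcggg
The motif searched was TTCNNNGAA, the spaced palindrome bound by STAT factors, which act downstream of *Gp130*, and it reads the same on both strands. It was found in the promoter of 1 of the 10 genes and in 7.70% of 21757 promoters of protein-coding genes of the same length. In *Sphk1* its first base lay 31 bases before the transcript start, in a window that overlaps an exon of another *Sphk1* transcript. ACANNNTGT, the spaced palindrome of glucocorticoid, progesterone and androgen receptors, was found in 0 of the 10 and in 5.22% of all promoters. The GC content was 68.4% in the *Lpar3* window and 60.0% in the *S1pr2* window, against a median of 53.2%. A match shows only that these letters are present in the window.

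Total expected counts were 13960748 in control 3 and between 22930513 and 25906443 in the other uteri, so control 3 was the shallowest library. Levels are given as CPM (library sizes scaled by TMM), and errors of means are the SD over 3 uteri. *Gp130*, listed as *Il6st*, had a CPM of 631, 678 and 452 in controls and 388, 349.8 and 362 in *Gp130* ecKO, with a log2 fold change of −0.68 (standard error, SE, 0.21), which did not pass the test (adjusted p = 0.120, edgeR quasi-likelihood). In a multidimensional scaling of all uteri control 2 lay at 0.03 on the first dimension, between controls 1 and 3 (2.09 and 2.08) and the *Gp130* ecKO uteri (−1.47 to −1.32). On the second dimension controls 1, 2 and 3 were spread over 1.70, −0.28 and −1.61. Markers of epithelium, stroma, smooth muscle and endothelium were detected in every uterus. Gene tables hold 1 library per uterus. In these 6 uteri, p-values of the fits weigh the difference between the groups against the spread within the groups.

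None of the 10 LPA and S1P genes was called at an adjusted p under 0.05 with more than 2-fold change in edgeR's quasi-likelihood test, where 0.157% of all tested genes were called. Under the same threshold edgeR's exact test called 1 member, *S1pr2* (7.54% of all genes), and DESeq2 called 1, again *S1pr2* (9.91%). An unadjusted p under 0.05 was found for *Lpar4* and *S1pr2*, both lower in *Gp130* ecKO, as for 25.0% of all genes in either direction and 12.9% in the lower direction. The p of *Lpar4* was above 0.05, at 0.0788 to 0.109, with control 1, control 2, *Gp130* ecKO 1 or *Gp130* ecKO 3 left out (edgeR quasi-likelihood), and without *Gp130* ecKO 3 *S1pr2* alone had a p under 0.05. In 3 genes, *Lpar4*, *S1pr2* and *S1pr3*, all 3 *Gp130* ecKO values lay under the lowest control value. Over all genes tested 31.3% had groups that did not overlap, and 15.6% lay lower in *Gp130* ecKO without overlap. Log2 fold changes were negative in 7 of the 10 genes and positive in 3, with a median of −0.61 beside −0.05 over all genes tested. In bulk RNA, fewer cells of a type and less RNA per cell cannot be told apart.

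**Figure D1:**
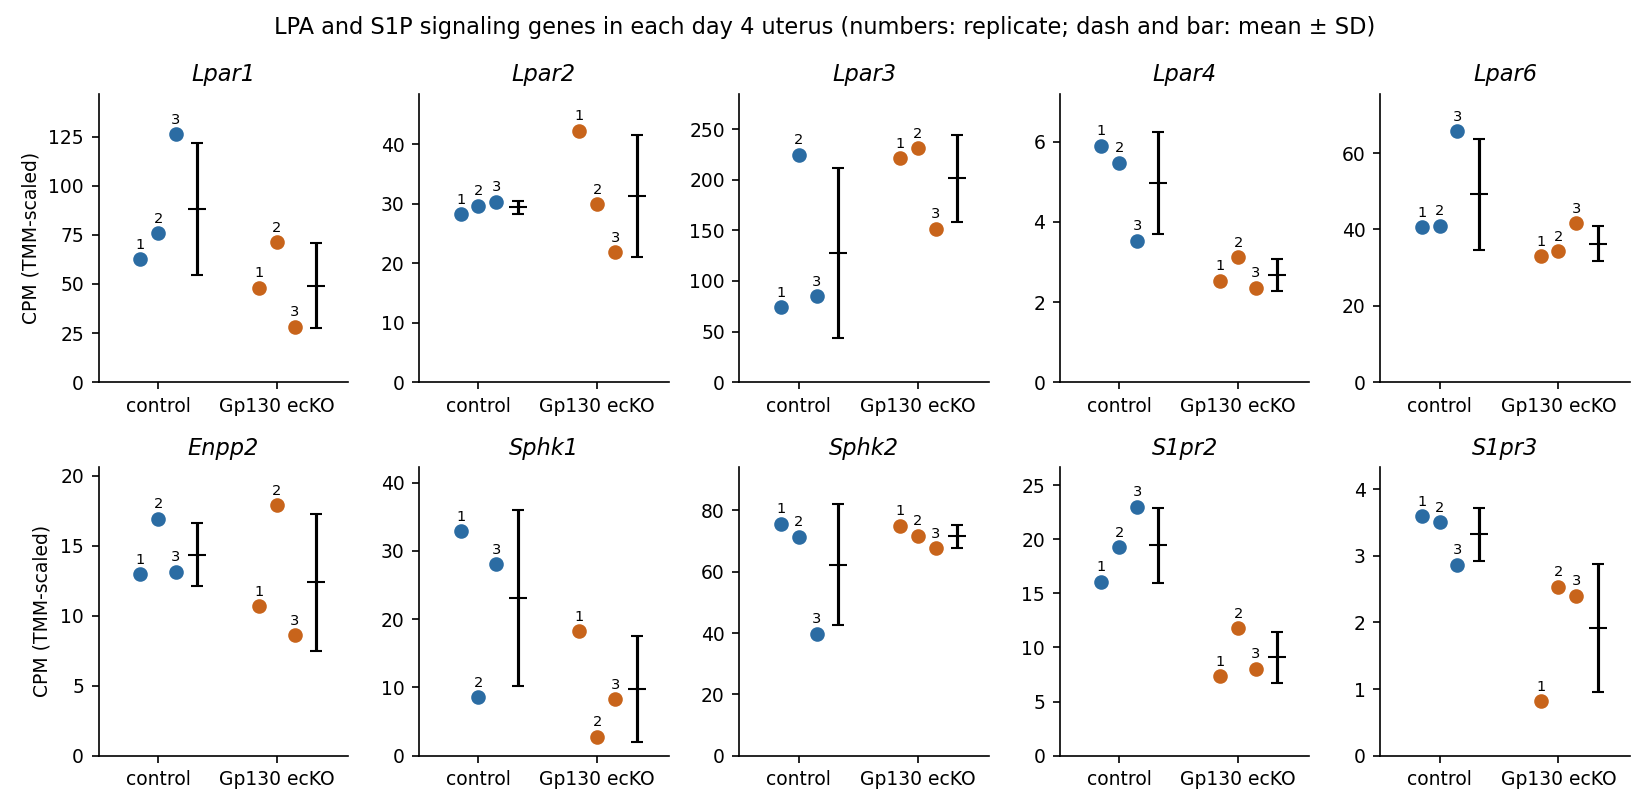
CPM of each of the 10 genes in each uterus (points, numbered by replicate), with the mean ± SD of 3 uteri per group beside them. The control and *Gp130* ecKO points are separate for *Lpar4*, *S1pr2* and *S1pr3*, and control 2 lies among the *Gp130* ecKO uteri for *Lpar3*.

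*Enpp2* (ENSMUSG00000022425, chr15:54701324-54816288, minus strand), which encodes the secreted enzyme that makes extracellular LPA, had a CPM of 12.9, 16.9 and 13.1 in controls 1 to 3 and 10.7, 17.9 and 8.58 in *Gp130* ecKO 1 to 3. *Gp130* ecKO 2 held the highest of all values and *Gp130* ecKO 3 the lowest. The groups overlapped, and the log2 ratio of *Gp130* ecKO to control (log2 fold change) was −0.21 (SE 0.32, adjusted p = 0.702, edgeR quasi-likelihood), and it was 0.02 without *Gp130* ecKO 3.

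*Lpar3* (ENSMUSG00000036832, chr3:145926691-145991969, plus strand) encodes the LPA receptor tied to implantation timing. CPM was 74.0, 225 and 84.8 in controls 1 to 3 and 221, 231 and 152 in *Gp130* ecKO 1 to 3. Controls 1 and 3 were lower than every *Gp130* ecKO uterus, whereas control 2 lay between *Gp130* ecKO 1 and 2. The mean was 201 ± 43.3 in *Gp130* ecKO and 128 ± 84.0 in controls. A log2 fold change of 0.65 (SE 0.43) did not pass the test (adjusted p = 0.369, edgeR quasi-likelihood). Without control 2 the log2 fold change was 1.38 and the adjusted p was 0.0323, in a fit that called 5.23% of all genes. With any other uterus left out it lay between 0.40 and 0.85. The call of *Lpar3* thus rested on whether control 2 was included.

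*Lpar1* (ENSMUSG00000038668, chr4:58435250-58554635, minus strand), a widely expressed LPA receptor, had a CPM of 62.6, 75.7 and 126 in controls and 48.0, 71.2 and 28.3 in *Gp130* ecKO. The groups overlapped because *Gp130* ecKO 2 was above control 1. A log2 fold change of −0.84 (SE 0.38, adjusted p = 0.220, edgeR quasi-likelihood) was obtained, with a range from −1.20 without *Gp130* ecKO 2 to −0.49 without control 3.

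*Lpar4* (ENSMUSG00000049929, chrX:105964206-105977506, plus strand), a receptor with a role in vessel formation, was weakly expressed, with 53 to 146 expected counts per uterus. Control CPM was 5.91, 5.48 and 3.53 and *Gp130* ecKO CPM was 2.53, 3.12 and 2.36. The lowest control, which was also the shallowest library, was only slightly above the highest *Gp130* ecKO uterus. The log2 fold change was −0.90 (SE 0.33, adjusted p = 0.158, edgeR quasi-likelihood), a mean CPM of 4.97 ± 1.26 against 2.67 ± 0.395.

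*Lpar6* (ENSMUSG00000033446, chr14:73475335-73480734, plus strand), which lies within the *Rb1* gene on the opposite strand and shares 408 exonic bases with it, had a CPM of 40.7, 41.0 and 65.8 in controls and 33.0, 34.3 and 41.6 in *Gp130* ecKO. Only *Gp130* ecKO 3 reached the range of the controls. Its log2 fold change of −0.44 (SE 0.24, adjusted p = 0.286, edgeR quasi-likelihood) did not pass and was −0.17 without control 3. *Lpar2* (ENSMUSG00000031861, chr8:70275079-70283752, plus strand) was nearly equal in controls, at 28.3, 29.7 and 30.4, and spread over 42.3, 30.0 and 21.9 in *Gp130* ecKO. These uteri lay above, within and below the controls, and the log2 fold change was 0.09 (SE 0.25, adjusted p = 0.841, edgeR quasi-likelihood), or −0.18 without *Gp130* ecKO 1.

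The makeup of the LPA receptors was compared per length, from the deposited TPM, as the share of each receptor in the sum of *Lpar1* to *Lpar6*. *Lpar3* made up 46.0%, 70.3% and 37.8% of this sum in controls and 75.2%, 72.9% and 74.8% in *Gp130* ecKO. Each *Gp130* ecKO uterus was above each control uterus, with means of 74.3% ± 1.25 and 51.4% ± 16.9, a difference of 23.0 percentage points, and control 2 was the closest of the controls to *Gp130* ecKO. *Lpar1* made up 32.1%, 18.4% and 41.5% in controls and 12.1%, 16.3% and 10.3% in *Gp130* ecKO, again without overlap, with means of 30.7% ± 11.6 and 12.9% ± 3.09. The exact two-sided permutation test gave p = 0.1 for both shares, the smallest p that 3 uteri against 3 allow. The shares are parts of 1 sum and so not independent of each other. The summed TPM of the receptors overlapped, at 82.9, 174 and 130 in controls and 171, 200.1 and 105 in *Gp130* ecKO (exact permutation p = 0.6). Among the smaller shares, *Lpar4* held 0.907% to 2.11% in controls and 0.492% to 0.667% in *Gp130* ecKO, also without overlap (exact permutation p = 0.1). *Lpar6* held 10.1% ± 3.86 in controls and 6.36% ± 2.47 in *Gp130* ecKO, *Lpar2* 6.35% ± 1.76 and 5.81% ± 1.18, and *Lpar5*, which did not pass the filter, under 1% in every uterus.

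**Figure D2:**
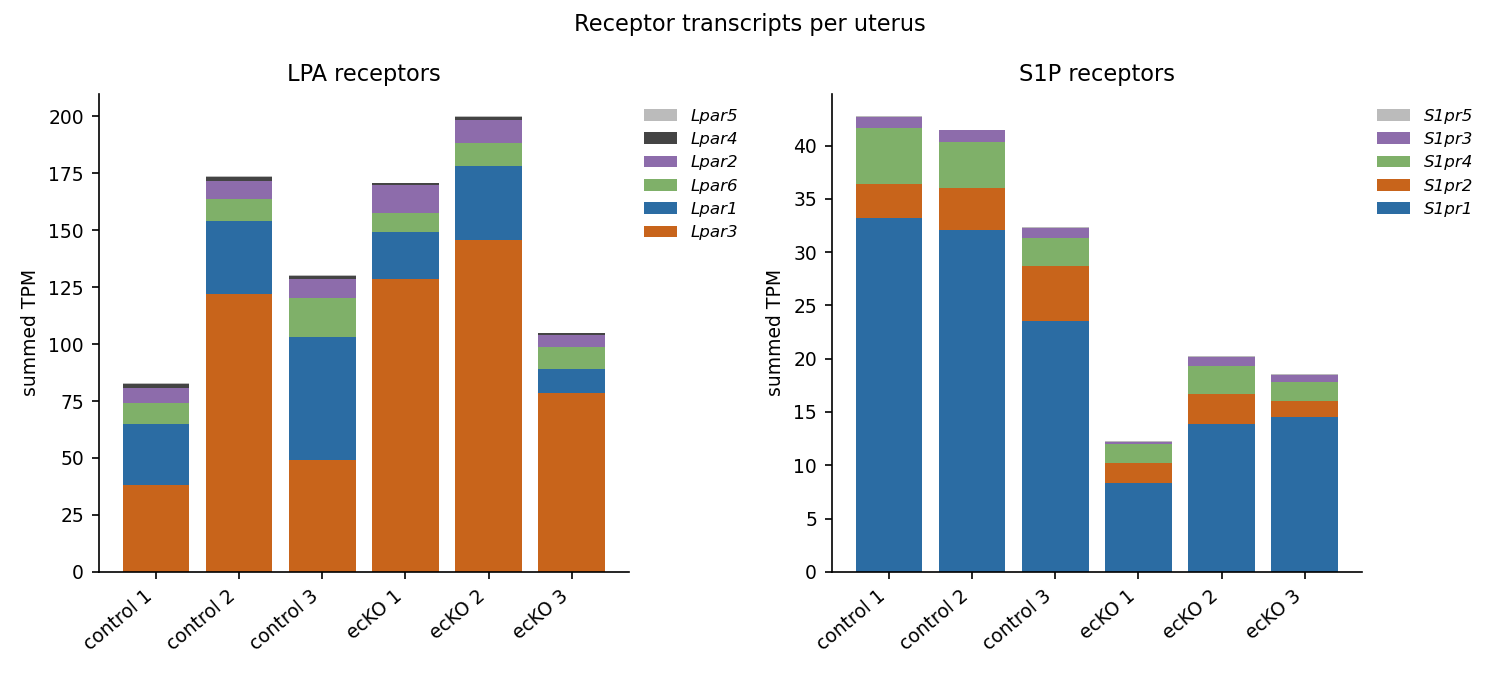
Summed TPM of the LPA receptors (left) and S1P receptors (right) in each uterus, stacked by receptor. *Lpar3* fills 72.9% to 75.2% of the left bars in *Gp130* ecKO and 37.8% to 70.3% in controls, and the right bars reach 32.3 to 42.8 in controls and 12.3 to 20.3 in *Gp130* ecKO.

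*Sphk1* (ENSMUSG00000061878, chr11:116421751-116427501, plus strand), the inducible cytoplasmic kinase, had the largest SE of the 10 genes. Controls had a CPM of 32.8, 8.52 and 28.1, and *Gp130* ecKO uteri had 18.2, 2.77 and 8.29. The value of control 2 was close to that of *Gp130* ecKO 3 and below that of *Gp130* ecKO 1. Between the groups the log2 fold change was −1.25 (SE 0.71, adjusted p = 0.307, edgeR quasi-likelihood), and leaving out 1 uterus moved it to between −2.06 (without *Gp130* ecKO 1) and −0.80 (without *Gp130* ecKO 2), with −1.62 without control 2. *Sphk2* (ENSMUSG00000057342, chr7:45358891-45367426, minus strand), the kinase found largely in the nucleus and organelles, had a CPM of 75.7, 71.5 and 39.8 in controls and 75.0, 71.7 and 67.7 in *Gp130* ecKO. Only control 3 stood apart, and the log2 fold change was 0.20 (SE 0.25, adjusted p = 0.645, edgeR quasi-likelihood), or −0.04 without control 3. *Sphk2* shares 2299 of its 7449 exonic bases with *Rpl18* and 539 with *Dbp*, both on the opposite strand. Whether counting used strand is not given in the sources used here, so reads of these genes may be mixed. The same holds for the 345 exonic bases that *Enpp2* shares with *Gm26684*, the 192 of *Sphk1* with *Sphkos* and the 134 of *S1pr3* with *Gm32834*. By TPM *Sphk1* made up 48.2%, 17.8% and 49.5% of both kinases in controls and 31.0%, 8.45% and 21.4% in *Gp130* ecKO (exact permutation p = 0.3).

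*S1pr2* (ENSMUSG00000043895, chr9:20873657-20914139, minus strand), a G protein-coupled S1P receptor, was the member with the smallest p-value. Controls measured 16.1, 19.3 and 23.0 CPM, and *Gp130* ecKO uteri measured 7.37, 11.8 and 8.04 CPM. Each *Gp130* ecKO uterus was below each control, with means of 9.07 ± 2.39 and 19.4 ± 3.47, a control level 2.14-fold that of *Gp130* ecKO. This gave a log2 fold change of −1.10 (SE 0.27) with an unadjusted p of 0.00463 and an adjusted p of 0.0929 in edgeR's quasi-likelihood test. With DESeq2 the adjusted p was 0.00595 and with edgeR's exact test it was 0.0259, so the call depended on the test. With each uterus left out in turn the log2 fold change stayed between −1.33 and −0.96, and *S1pr2* shares 122 exonic bases with *Mrpl4* on the opposite strand.

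*S1pr3* (ENSMUSG00000067586, chr13:51561702-51576833, plus strand), a receptor of vessels and smooth muscle, was the weakest of the members, with 18 to 91 expected counts per uterus. Controls measured 3.60, 3.51 and 2.87 CPM, and *Gp130* ecKO uteri measured 0.814, 2.54 and 2.40 CPM. *Gp130* ecKO 1 was far below the other 5 uteri, and *Gp130* ecKO 2 and 3 were just under the lowest control. The log2 fold change was −0.79 (SE 0.46, adjusted p = 0.314, edgeR quasi-likelihood) and −0.43 without *Gp130* ecKO 1.

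**Figure D3:**
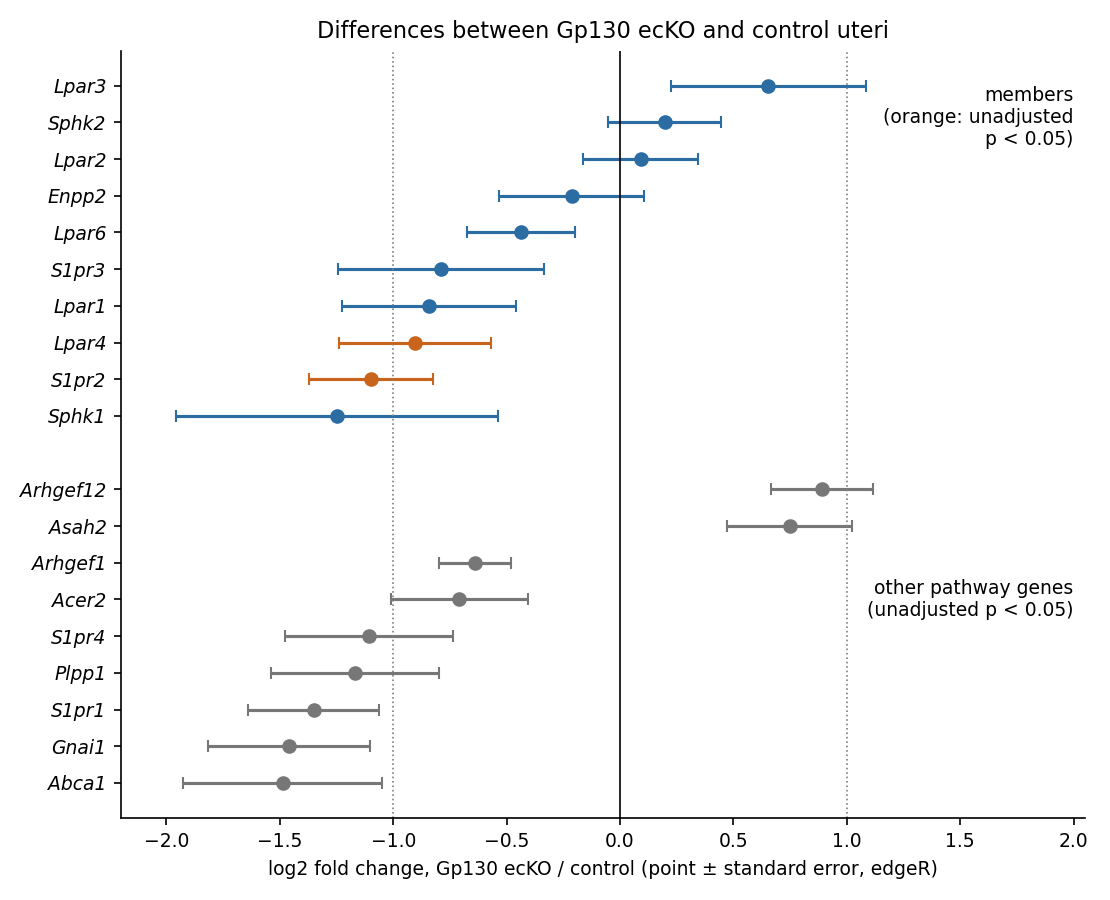
Log2 fold change of *Gp130* ecKO over control with its standard error for the 10 genes (above) and for the other pathway genes with an unadjusted p under 0.05 (below); dotted lines mark 2-fold change. Of the members, *S1pr2* at −1.10 and *Lpar4* at −0.90 had an unadjusted p under 0.05 (orange), and *Lpar3* had the highest value at 0.65.

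Ordered by TPM, *Lpar3* was first in both groups, at 69.8 ± 45.6 in controls and 118 ± 35.0 in *Gp130* ecKO. In controls it overlapped *Lpar1* (37.5 ± 14.5), which overlapped *Sphk2* (29.6 ± 5.79), which overlapped *Sphk1* (20.0 ± 11.7). *Lpar6* (12.2 ± 4.30) was above *Lpar2* (7.65 ± 0.878) in all 3 controls without overlap, and *Lpar2* overlapped *Enpp2* (6.37 ± 0.869). *S1pr2* (4.09 ± 0.996), *Lpar4* (1.55 ± 0.318) and *S1pr3* (0.987 ± 0.0681) followed, each below the range of the gene before. In *Gp130* ecKO *Lpar3* was above the range of the next gene, *Sphk2* (34.2 ± 5.96). *Sphk2* was above *Lpar1* (21.3 ± 10.9) in all 3 *Gp130* ecKO uteri, although their ranges overlapped. Among controls *Lpar1* was above *Sphk2* only in control 3, at 54.1 against 22.9. *Sphk1*, *Lpar2*, *Lpar6* and *Enpp2*, between 9.41 ± 7.22 and 6.13 ± 3.03, could not be ordered beyond their spread. *S1pr2* (2.07 ± 0.663) lay below them and above *Lpar4* (0.890 ± 0.219) and *S1pr3* (0.603 ± 0.312), which overlapped each other.

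**Figure D4:**
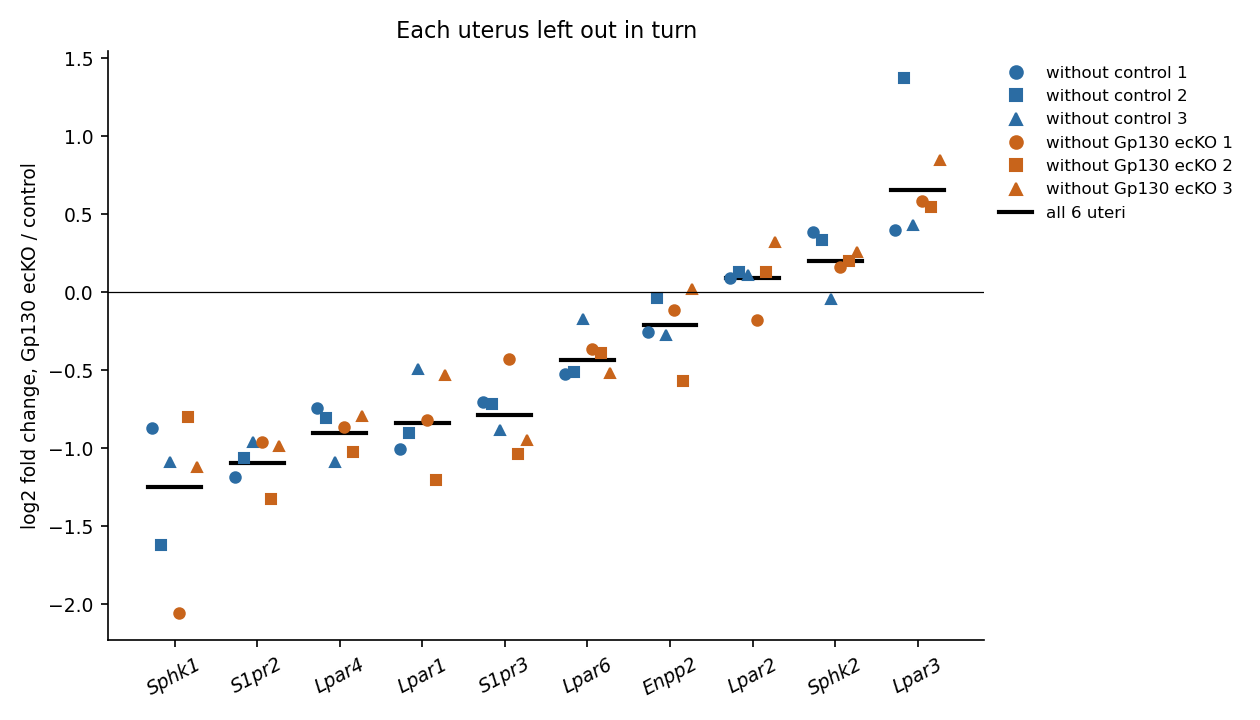
Log2 fold change of each of the 10 genes over all 6 uteri (bars) and with each uterus left out (symbols, colour by group and shape by replicate). *Lpar3* moves from 0.65 to 1.38 without control 2 and *Sphk1* from −1.25 to −2.06 without *Gp130* ecKO 1. With every uterus left out *Sphk1*, *S1pr2*, *Lpar4*, *Lpar1*, *S1pr3* and *Lpar6* stay below 0, and *Lpar3* stays above 0.

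The other genes of LPA and S1P signaling were described from a list of 39 genes, of which 33 passed the filter. None was called by edgeR's quasi-likelihood test, 9 had an unadjusted p under 0.05 (7 lower and 2 higher in *Gp130* ecKO, beside the 25.0% of all genes) and the median log2 fold change was −0.02. With each uterus left out the 9 became 6 to 11. *S1pr1*, the main S1P receptor of endothelium, had a CPM of 80.1, 73.4 and 50.5 in controls and 17.9, 27.3 and 34.8 in *Gp130* ecKO. The groups were separate, with a log2 fold change of −1.35 (SE 0.29, adjusted p = 0.0767 by edgeR's quasi-likelihood test, 0.00270 by its exact test and 0.00222 by DESeq2). *S1pr4*, a receptor of blood cells, was also lower in each *Gp130* ecKO uterus, at 9.91, 7.79 and 4.40 against 2.98, 4.04 and 3.28, with a log2 fold change of −1.11 (SE 0.37, adjusted p = 0.134, edgeR quasi-likelihood). Its unadjusted p was 0.0543 to 0.0863 with control 1, control 2, *Gp130* ecKO 1 or *Gp130* ecKO 3 left out (edgeR quasi-likelihood). By TPM the 5 S1P receptors summed to 42.8, 41.5 and 32.3 in controls and 12.3, 20.3 and 18.6 in *Gp130* ecKO, without overlap and with means of 38.9 ± 5.67 and 17.0 ± 4.21 (exact permutation p = 0.1). Within that sum the shares of *S1pr1* and *S1pr2* overlapped: *S1pr1* held 72.9% to 77.7% in controls and 68.2% to 78.1% in *Gp130* ecKO (exact permutation p = 0.4), and *S1pr2* held 7.39% to 15.9% and 8.46% to 14.7% (exact permutation p = 0.9).

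Of the genes that remove, release or carry these lipids, *Plpp1*, a surface phosphatase of LPA and S1P, had a log2 fold change of −1.17, and *Abca1*, a lipid exporter, of −1.49 (adjusted p = 0.124 and 0.113, edgeR quasi-likelihood). Without control 1 *Plpp1* was at −0.78. *Asah2* and *Acer2*, ceramidases that release sphingosine, went in opposite directions, at 0.75 and −0.71 (adjusted p = 0.158 and 0.199, edgeR quasi-likelihood). None of the 4 tested genes of LPA making and none of the 3 of S1P breakdown had an unadjusted p under 0.05. Of the 13 genes of G proteins and of the steps they act on, *Gnai1* (−1.46, adjusted p = 0.0906) and *Arhgef1* (−0.64, adjusted p = 0.0922) were lower and *Arhgef12* (0.89, adjusted p = 0.0939, all edgeR quasi-likelihood) was higher. These 3 and *Gna11*, which was higher, made 4 of 13 without overlap, beside 31.3% of all genes. Of the 9 genes DESeq2, which called 9.91% of all genes, called *S1pr1*, *S1pr4*, *Plpp1*, *Abca1* and *Gnai1*. The exact test of edgeR, which called 7.54%, called *S1pr1*, *Abca1* and *Gnai1*, and the quasi-likelihood test without control 2 called *Gnai1* (−1.65, adjusted p = 0.0468).

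Genes linked to *Lpar3* in implantation were read from the same fit. *Ptgs2*, the inducible prostaglandin synthase, had a CPM of 12.8, 5.51 and 103 in controls and 22.3, 32.9 and 18.9 in *Gp130* ecKO. Control 3 alone held the high value, and the log2 fold change was −0.71 with all uteri and 1.43 without control 3 (adjusted p = 0.658 and 0.198, edgeR quasi-likelihood). *Bmp2*, a growth factor of decidualization, had a CPM of 8.66, 4.74 and 23.5 in controls and 2.26, 2.69 and 1.99 in *Gp130* ecKO. Each *Gp130* ecKO uterus was below each control, and the log2 fold change was −2.39 (SE 0.60, adjusted p = 0.0922 by edgeR's quasi-likelihood test, 0.00679 by its exact test and 0.00150 by DESeq2). It was −2.74 without control 2 (adjusted p = 0.0317, edgeR quasi-likelihood) and −1.53 without control 3 (adjusted p = 0.164). *Ptges*, *Hbegf* and *Wnt4* overlapped between the groups, with log2 fold changes of −1.30, −0.71 and −0.04 (adjusted p = 0.206, 0.297 and 0.959, edgeR quasi-likelihood), and *Ptges* was at −0.44 without control 3.

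YAP and SRF response genes, which LPA and S1P receptors switch on in cultured cells, were tested for 6 of 7 genes, and edgeR's quasi-likelihood test over all uteri called none. *Ccn1* had a CPM of 95.4, 25.0 and 47.4 in controls and 20.9, 9.81 and 21.9 in *Gp130* ecKO, without overlap and with a log2 fold change of −1.67 (SE 0.51, adjusted p = 0.119, edgeR quasi-likelihood). *Ccn2* had a CPM of 710, 675 and 223 in controls and 228, 100.4 and 36.9 in *Gp130* ecKO, where *Gp130* ecKO 1 just passed control 3, and its log2 fold change was −2.14 (SE 0.69, adjusted p = 0.126, edgeR quasi-likelihood), with −2.96 without *Gp130* ecKO 1 and −1.69 without *Gp130* ecKO 3. Both were called by edgeR's exact test and by DESeq2, and *Ccn1* also by the quasi-likelihood test without control 2 (−2.00, adjusted p = 0.0495), although it was −1.01 without control 1 (adjusted p = 0.255). *Amotl2*, *Lats2*, *Srf* and *Vcl* had log2 fold changes between −0.21 and 0.24, and *Vcl* (0.24) was the 1 of these without overlap, higher in *Gp130* ecKO. With *Ccn1* this made 2 of the 6 tested genes without overlap, beside 31.3% of all genes.

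The genes most like *Lpar3* over the 6 uteri were found by the root mean square difference in centred log2(CPM + 0.5), which was 0.76 in the median over 14753 genes. *Tmem94* (0.12), *Entrep1* (0.14), *Gm44427* (0.15), *Gm19412* (0.16) and *Lrpap1* (0.17), a chaperone of lipoprotein receptors, were the closest. *Entrep1* had a CPM of 169, 600.3 and 204 in controls and 519, 700.1 and 402 in *Gp130* ecKO. As for *Lpar3*, control 2 lay within the range of the *Gp130* ecKO uteri.

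Levels of cell type markers are given beside the receptors. The summed CPM of 7 epithelium markers was 2000.0 to 2948 in controls and 4222 to 5867 in *Gp130* ecKO, and 3 of the 7, *Krt8*, *Krt19* and *Cdh1*, were higher at an unadjusted p under 0.05. The markers differed among themselves, with a log2 fold change of 2.19 for *Krt19* and −0.19 for *Epcam*. That of 7 stroma markers was 1818 to 2200.1 and 1011 to 1316, with 6 of 7 lower at such a p. That of 6 endothelium markers was 386 to 951 and 208 to 368, with 6 of 6 lower. At such a p 2010 of all 16605 genes tested were higher and 2141 (12.9%) lower. The quasi-likelihood test of edgeR called no marker. *Gp130* ecKO 1 was lowest in endothelium markers, *S1pr1*, *S1pr2*, *S1pr3* and *S1pr4*, and *Gp130* ecKO 3 was lowest in *Lpar4*. Among the *Gp130* ecKO uteri, *Gp130* ecKO 2 was highest in endothelium markers, *S1pr2*, *S1pr3*, *S1pr4* and *Lpar4*, and *Gp130* ecKO 3 was highest in *S1pr1*. In control 3, the control lowest in endothelium markers, *S1pr1*, *S1pr3*, *S1pr4* and *Lpar4* were the lowest of the controls and *S1pr2* was the highest. For 6 macrophage markers the sum was 150 to 219 in controls and 75.5 to 166 in *Gp130* ecKO, with 1 of 6 lower, beside 12.9% of all genes. The 4 lymphocyte markers summed to 4.61 to 6.44 and 2.49 to 7.31, and the 5 gland markers to 108 to 1063 and 154 to 8684, where *Gp130* ecKO 1 alone held the high sum and *Gp130* ecKO 2 and 3 were at 154 and 202. The 6 smooth muscle markers overlapped widely, at 487 to 2029 and 367 to 2292. Of these lists no marker was at 0 in all uteri, and the part of cell composition in the values of *Lpar1*, *Lpar3*, *S1pr1*, *S1pr2* and *S1pr3* was not tested.

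**Figure D5:**
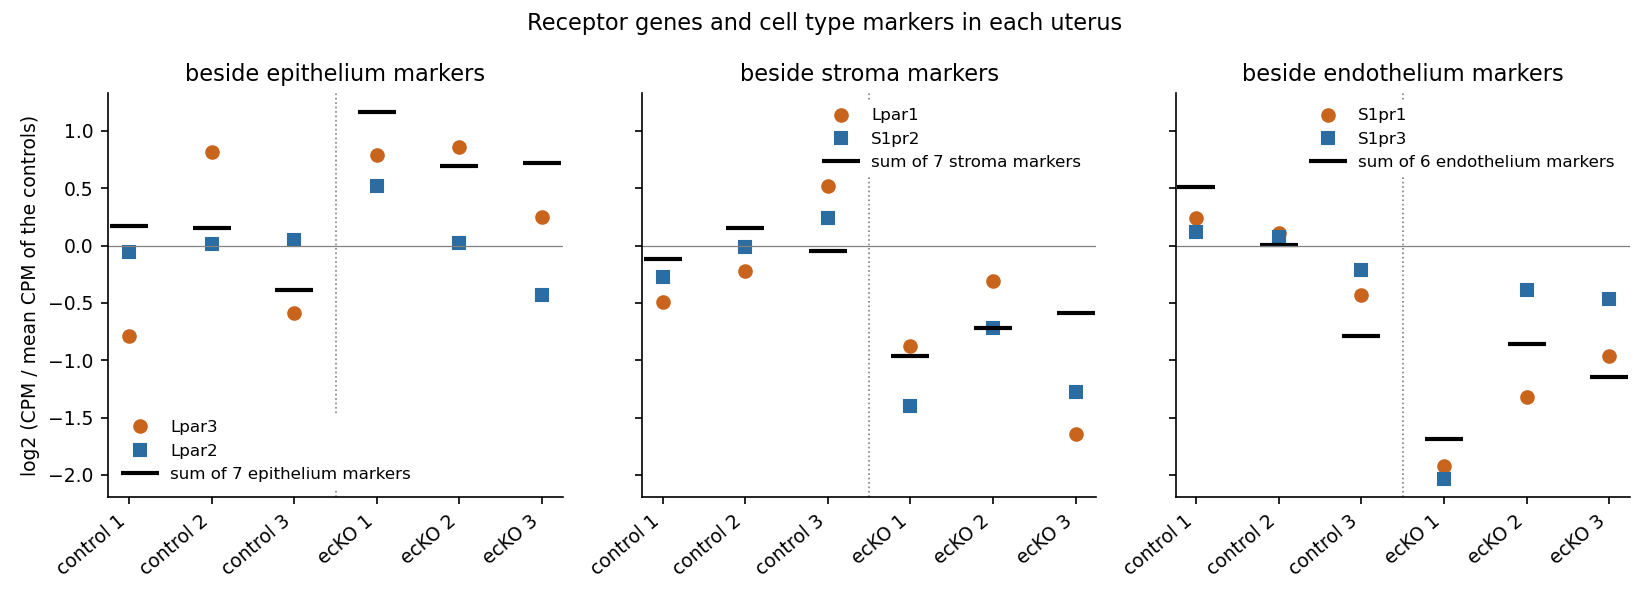
Log2 of the CPM of receptor genes over their control mean (points) and of the summed CPM of marker lists over its control mean (bars) in each uterus, beside epithelium (left), stroma (middle) and endothelium markers (right). Bars lie above 0 in all 3 *Gp130* ecKO uteri for epithelium and below 0 for stroma and endothelium, and control 3 lies lowest of the controls for epithelium and endothelium.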

How the data were processed

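RNA of 6 uteri was sequenced as single reads from strand-specific poly(A) libraries. Per the study's methods and the submitters' processing notes, the authors trimmed reads with fastp 0.23.2, removed ribosomal RNA reads with SortMeRNA, mapped to GRCm39 with STAR 2.7.10a and estimated counts per gene with RSEM 1.3.3. The annotation version and the strand setting are not given in the sources used here. The deposited tables hold expected counts, which are not normalized, and TPM and FPKM, which the authors' RSEM run scaled to transcript length and depth. RSEM divides reads shared by genes. FPKM was not used, and TPM served for levels of different genes and for sums and shares of receptors and kinases.

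Rounded expected counts were tested in R 4.3.3 with edgeR 4.0.16: filterByExpr (16605 genes), TMM, quasi-likelihood F test (legacy form off), Benjamini-Hochberg adjustment over all genes tested. Genes were called at an adjusted p under 0.05 and more than 2-fold change. The SE was obtained from the F statistic as the log2 fold change over its square root. Single values were compared by exact permutation of log2(CPM + 0.5), and shares by exact permutation of the shares. GENCODE M39 (GRCm39) gave symbols, coordinates and sequences, and 56017 of 56748 identifiers matched it. All members were named, with pathway genes at an unadjusted p under 0.05, the *Lpar3*-linked and response genes, and the 5 genes closest to *Lpar3* with a mean CPM of at least 1. The members and lists were chosen with earlier results of these data known. Alternatives were edgeR's exact test, DESeq2 1.42.0, the legacy form, RLE factors, other filters, the replicate block and each uterus left out. The fit was tested on simulated data. Total counts per uterus were 13960748 to 25906443, and the lowest counts among the members were those of *S1pr3* and *Lpar4*.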

Additional observations from a re-analysis of the deposited data

How the results depend on the processing

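The number of genes called depended on the fit, and the number tested also differed between fits. Calls numbered 26 of 16605 as reported, 1252 of 16605 with edgeR's exact test and 1546 of 15594 with DESeq2. There were 7 with the legacy quasi-likelihood form and 105 without a filter. With each uterus left out there were 1 (without *Gp130* ecKO 3) to 897 (without control 2, of 17142 tested). Among the 10 members the calls were 0 as reported, 1 with the exact test, 1 with DESeq2, and 0 to 1 with each uterus left out, the 1 being *Lpar3* without control 2. Members with an unadjusted p under 0.05 numbered 1 (without *Gp130* ecKO 3) to 3 with each uterus left out, and members without overlap 3 to 5, where *Lpar3* and *Sphk1* joined without control 2 (45.6% of all genes had no overlap) and *Lpar1* and *Enpp2* without *Gp130* ecKO 2 (42.2%). Replicate numbers did not pair the uteri (correlations of deviations 0.10, 0.06 and −0.18 for numbers 1 to 3). With the replicate block 6 of all genes and 0 members were called, and the members with an unadjusted p under 0.05 were *S1pr2*, *Sphk1* and *Lpar3*, not *Lpar4* (log2 fold changes −1.11, −1.40, 0.82 and −0.88). Of the 130 member values under alternatives 124 kept direction and call, 3 gained a call and 3 changed sign. With each uterus left out the log2 fold change ranged from −0.18 to 0.32 for *Lpar2*, −0.57 to 0.022 for *Enpp2* and −0.044 to 0.38 for *Sphk2*. Outside the members, *Ptgs2* was 0.38 with the replicate block and −1.18 to 1.43 with each uterus left out, and *Wnt4* was 0.000608 without a filter, 0.080 with the replicate block and −0.39 to 0.21 with each uterus left out. The causes were not tested. Shares from CPM per effective length equal those from TPM by construction, apart from rounding, so that alternative tests nothing. With each uterus left out, the *Lpar3* share in *Gp130* ecKO exceeded that in controls by 16.2 (without control 3) to 32.4 percentage points (without control 2). For the *Lpar1* share the difference was −24.0 (without control 2) to −12.4 points (without control 3). Depth limits *Lpar4* and *S1pr3*, whose lowest counts were 53 in control 3 and 18 in *Gp130* ecKO 1.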

Other observations

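The effective length that RSEM gave to a gene differed between uteri for some members, since it weights the transcripts of a gene by their estimated shares. For *Sphk1* it was 1241 to 1731 bases, for *Lpar2* 4307 to 5213, for *Sphk2* 2407 to 3058 and for *Lpar1* 2896 to 3296. For *S1pr2* it was 5645 to 6319 and for *Enpp2* 2815 to 3017. For *Lpar3*, *Lpar4*, *Lpar6* and *S1pr3* it varied by less than 1 base. In *Sphk1* the longest value was that of control 3 and the shortest that of *Gp130* ecKO 2, the uterus with the lowest *Sphk1* CPM. TPM of these genes depends on this estimate, whereas CPM does not.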
